A study of Saccharomyces cerevisiae with 12 samples.

Results

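This account covers 50 genes of amino acid biosynthesis in budding yeast, out of 6002 nuclear coding genes in the RefSeq R64 table. The genes were listed by name, but with earlier results of these data known. All 50 were found in that table. They encode enzymes for arginine (5 genes), histidine (4), lysine (7), the branched-chain amino acids isoleucine, valine and leucine (11), sulphur amino acids (4), aromatic amino acids (7), threonine by way of homoserine (5), serine (3), and nitrogen assimilation with asparagine (4). For each gene, Scc2 peaks were looked for in the coding span, which is the annotated span with any intron, and separately in the 500 bp before the start codon.

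The study mapped Scc2 by chromatin immunoprecipitation and sequencing in W303 yeast, with 3 cultures treated with 1 mM auxin and 3 left untreated. All cultures were MATa and carried SCC2-13MYC::NAT, which adds a Myc tag for the antibody, MED14-AID*-6FLAG::HYG, which adds a degron to Med14, and ura3-1::ADH1-OsTIR1(pMK200,URA3), which supplies the plant F-box protein that marks the degron for destruction once auxin is present. Cells were held in alpha-factor for another 1.5 hours with auxin and then released into nocodazole for 2 hours. Every sample's protocol text mentions auxin, so the cultures called without auxin are those whose title and treatment label say so. Both conditions share the degron, the tag and OsTIR1, and no culture with auxin but without the degron was used here, so an effect of auxin and an effect of Med14 loss cannot be told apart.

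Scc2, with Scc4, loads the ring complex cohesin onto chromosomes. Med14 is the scaffold of Mediator, the coactivator that links gene-specific activators to RNA polymerase II. Many amino acid biosynthesis genes are controlled by Gcn4, an activator that recruits Mediator and is made in greater amounts when amino acids run short. Other activators serve branches of the network, among them Leu3 for leucine, Lys14 for lysine and Met4 for sulphur amino acids. The cultures grew in YPD, a rich medium that supplies amino acids.

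The 3 lists with auxin held 964, 1324 and 1569 peaks, and the 3 lists without auxin held 2115, 2111 and 1502. Values are given below in this order, by culture number within each condition. A list says where a peak was called and not how much Scc2 was bound, and in these bulk samples fewer cells with Scc2 at a site and less Scc2 per cell cannot be told apart. Sequencing depth is unknown. The lists differed in the median fold enrichment that the authors' peak caller gave to their peaks, at 3.93, 2.83 and 2.57 with auxin and 1.70, 1.67 and 2.54 without auxin. Of the lists without auxin the third was unlike the first and the second, with fewer peaks and a higher median fold, and the part of these differences in the results below was not tested.

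Many of the 50 listed genes carried Scc2 peaks over their coding spans in the cultures without auxin, and few did so with auxin. A peak lay in the coding span of 4, 6 and 8 of the 50 genes with auxin, against 38, 38 and 17 without auxin, or 12 ± 4% against 62 ± 24.2% (SD, n = 3 each). The groups did not overlap, although the third list without auxin held fewer than its fellows. Over all 6002 coding genes the shares were 7.93, 12.4 and 15.2% with auxin and 24.9, 25.0 and 17.0% without auxin. With auxin the amino acid genes therefore stood at the level of coding genes in general, at 8, 12 and 16%, whereas without auxin they stood at 76, 76 and 34%. Their coding spans had a median length of 1329 bp against 1200 bp for all coding genes. Counted by bases, which does not depend on gene length, peaks covered 2.16, 4.13 and 5.35% of the 50 coding spans with auxin and 46.1, 47.6 and 16.3% without auxin, against 3.87, 5.00 and 6.22% with auxin and 12.9, 13.0 and 9.54% without auxin over all coding genes.

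**Figure D1:**
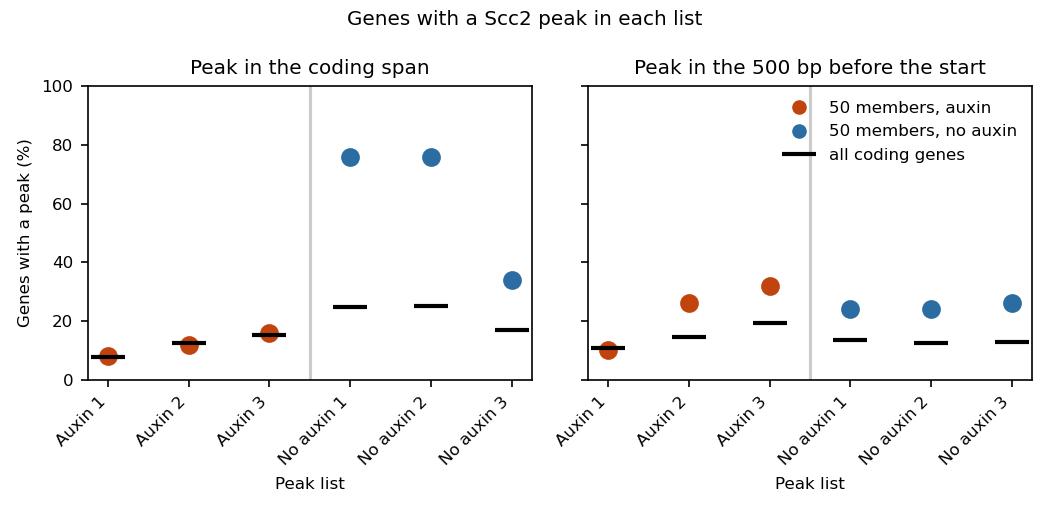
Share of genes with a Scc2 peak in each list (y axis, percent), in the coding span (left) and in the 500 bp before the start (right); coloured points are the 50 amino acid genes and black bars all 6002 coding genes. In the coding span the points reach 76, 76 and 34% without auxin and lie near the bars with auxin, at 8, 12 and 16%.

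The size of this difference depended on the lists. When every list was trimmed to its 964 strongest peaks, the coding-span counts were 4, 4 and 4 with auxin and 14, 16 and 5 without auxin, so that the third list without auxin was close to those with auxin. All coding genes in the trimmed lists stood at 7.93, 8.80 and 9.41% with auxin and 11.7, 12 and 11% without auxin. The third lists of the 2 conditions were the closest pair in number of peaks and median fold, and they held coding-span peaks at 8 genes with auxin and 17 without auxin. Of the 50 genes, 11 had a peak in the third list without auxin and not in the third with auxin (6.70% of all coding genes), 2 the reverse (4.88%) and 6 in both (10.3%).

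Peaks in all 3 lists without auxin and in none with auxin, here called lost, were found in the coding spans of 10 of the 50 genes, against 5.56% of all coding genes. These were CPA1, ARG4, LYS20, LYS21, ILV2, LEU4, LEU1, BAT1, SER3 and GLN1. Peaks in all 6 lists, here called kept, were found at 4 genes, ILV5, ILV6, MET14 and THR1, against 5.53% of all coding genes. No gene had a peak in all 3 lists with auxin and in none without, a pattern called gained that 0.716% of coding genes showed. At 11 genes no list held a coding-span peak, against 66.9% of all coding genes. The remaining 25 had mixed patterns. Among them, 20 had a coding-span peak in the first and second lists without auxin and not in the third (6.40% of all coding genes), and 18 of these 20 had none in any list with auxin. With the third list without auxin left out, 28 genes were lost against 10.8% of coding genes, and 4 kept against 5.70%. With 964 peaks in every list, 3 were lost (ASN1, GDH1 and ILV2) against 3.35% of coding genes, and 2 kept (ILV5 and MET14) against 3.93%, shares near those of coding genes in general.

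The percentage of the coding span under peaks was lower in every list with auxin than in every list without auxin at 15 of the 50 genes, against 9.98% of all coding genes, and higher in every list with auxin at none, against 1.62%. The exact two-sided permutation test over 20 assignments of the lists gave p = 0.1 for each of these 15, the lower bound for 3 lists against 3. With Benjamini-Hochberg adjustment over the 1988 coding genes with a peak in any list, their p was 0.286, so no gene passed 0.05, and none had an unadjusted p below 0.05 either. Averaged over the 50 genes, coverage was 5.51 ± 2.44% with auxin and 38.0 ± 16.4% without auxin (SD, n = 3 each). Over all coding genes it was 5.64 ± 1.78% with auxin and 12.1 ± 2.12% without auxin (SD, n = 3 each). The median gene among the 50 had 0% in each list with auxin and 48.5, 57.9 and 0% without auxin, while the median of all coding genes was 0% in every list.

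**Figure D2:**
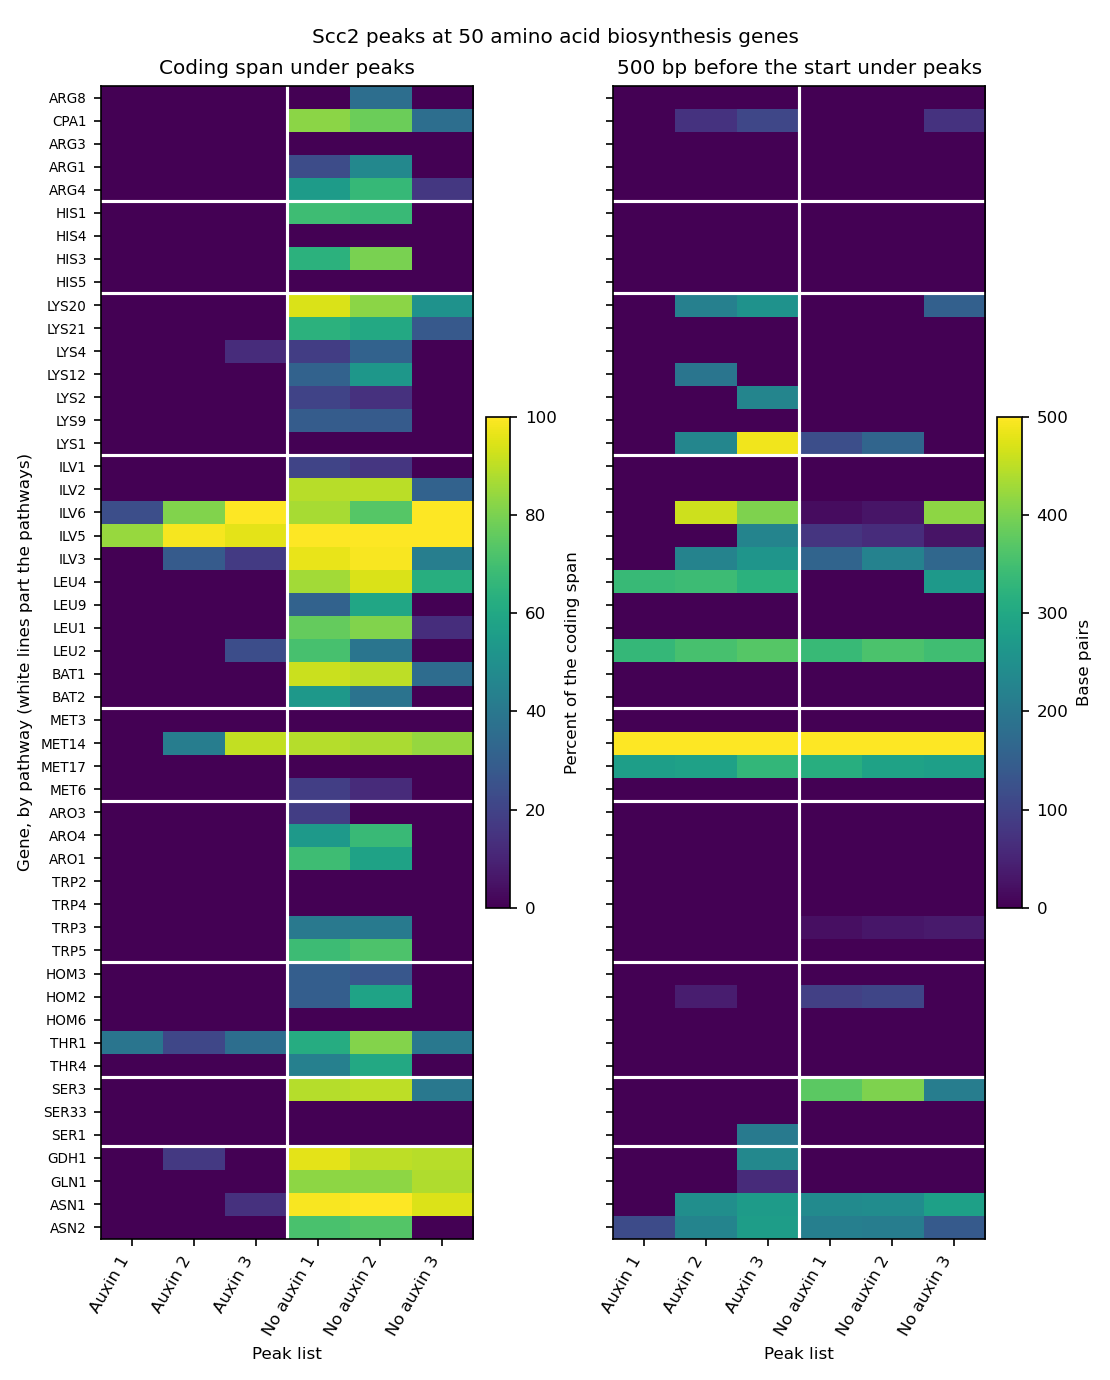
Rows are the 50 genes in pathway order and columns the 6 lists, those with auxin at the left; colour shows the percent of the coding span (left panel) and the base pairs of the 500 bp before the start (right panel) under peaks. Coding-span coverage is spread over most rows without auxin, more thinly in the third list, and is confined to 9 genes with auxin, whereas coverage before the start appears in both conditions.

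The branched-chain pathway had coding-span peaks at all 11 genes in the first and second lists without auxin. The counts were 2, 3 and 4 of 11 with auxin and 11, 11 and 7 without auxin. Mean coverage was 16.8 ± 6.11% with auxin and 59.7 ± 21.4% without auxin (SD, n = 3 each), and the groups did not overlap.

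ILV5, on chromosome XII from 838066 to 839253, encodes the acetohydroxyacid reductoisomerase of mitochondria and was the most fully covered of the 50 genes. Peaks lay over 84.5, 98.5 and 96.0% of it with auxin and 100% in each list without auxin. The groups did not overlap, but the difference in coverage was small and the gene was covered nearly end to end in both conditions. Its peaks without auxin ran past the stop codon, from -78, -63 and -27 bp to 1688, 1721 and 1676 bp. Positions are counted from the first base of the start codon. With auxin the coding-span peaks ended at 1096, 1182 and 1242 bp, so that the third also passed the stop codon, by 55 bp. By −log10 q the coding-span peaks ranked 661 of 964, 649 of 1324 and 576 of 1569 with auxin. Without auxin they stood higher within their lists, at 21 of 2115, 19 of 2111 and 107 of 1502.

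ILV6 (chromosome III, 104619 to 105548) encodes the regulatory subunit of acetolactate synthase, the first enzyme shared by the isoleucine and valine branches. It had 24.0, 80.9 and 100% coverage with auxin and 87.0, 73.8 and 100% without auxin, so the groups overlapped. With 964 peaks in every list its difference turned to 27.6 percentage points higher with auxin, and to 3.51 points higher when the first of the lists with auxin was left out. ILV2 (chromosome XIII, 484084 to 486147), the catalytic subunit of the same enzyme, had no peak with auxin and 89.3, 89.5 and 31.5% without auxin. The subunits of acetolactate synthase thus fell into different patterns, ILV6 kept and ILV2 lost. ILV3 (chromosome X, 464451 to 466208), the dihydroxyacid dehydratase, had 0, 28.8 and 16.9% with auxin and 96.8, 99.1 and 42.8% without auxin, with no overlap.

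The leucine branch was mostly uncovered with auxin. LEU4 (chromosome XIV, 424895 to 426754), the main alpha-isopropylmalate synthase, had no coding-span peak with auxin and 86.3, 94.2 and 62.5% coverage without auxin. LEU1 (chromosome VII, 476313 to 478652), isopropylmalate isomerase, had none with auxin and 76.5, 80.9 and 12.9% without auxin. BAT1 (chromosome VIII, 517532 to 518713), the mitochondrial branched-chain aminotransferase, had none with auxin and 92.0, 89.9 and 35.4% without auxin. The second isozymes LEU9 and BAT2 were covered less. LEU9 had 31.5 and 59.2% and BAT2 53.4 and 38.1% in the first and second lists without auxin, and both were uncovered in the other 4 lists.

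Nitrogen assimilation and asparagine genes had the highest mean coverage of any pathway without auxin, and nearly all of it was missing with auxin. Mean coverage over the 4 genes was 2.59 ± 2.26% with auxin and 80.7 ± 10.9% without auxin (SD, n = 3 each). Coding-span peaks were present at 0, 1 and 1 gene with auxin and at 4, 4 and 3 without auxin. ASN1, GDH1 and GLN1 did not follow the drop in the third list without auxin, where each had at least 88.2% coverage. ASN2 did follow it, with 0% there. The mean over the 4 genes was 87.3, 86.7 and 68.1% without auxin.

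ASN1 (chromosome XVI, 822620 to 824338), an asparagine synthetase, had 0, 0 and 14.4% coverage with auxin and 98.9, 100 and 94.9% without auxin. GDH1 (chromosome XV, 1041678 to 1043042), the NADP-dependent glutamate dehydrogenase that fixes ammonium, had 0, 16.7 and 0% with auxin and 95.8, 90.2 and 89.2% without auxin. GLN1 (chromosome XVI, 642208 to 643320), glutamine synthetase, had no coding-span peak with auxin and 83.0, 83.0 and 88.2% without auxin. At each of these 3 genes the groups did not overlap, and the 3 lists without auxin were close to each other. ASN2 (chromosome VII, 739944 to 741662), the other asparagine synthetase, had none with auxin and 71.4, 73.4 and 0% without auxin.

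Lysine genes were covered less than the branched-chain genes, and the first step of the pathway was the best covered. The 7 genes had coding-span peaks at 0, 0 and 1 gene with auxin and 6, 6 and 2 without auxin. LYS20 (chromosome IV, 133437 to 134723) and LYS21 (chromosome IV, 227393 to 228715) encode homocitrate synthases. LYS20 was uncovered with auxin and had 94.2, 82.8 and 51.0% coverage without auxin. LYS21 was likewise uncovered with auxin and had 64.1, 60.4 and 27.9% without auxin. These were the lost genes of the pathway. At the later steps, LYS4, LYS12, LYS2 and LYS9 had 14.3 to 53.1% coverage in the first and second lists without auxin and 0% in the third, and LYS1, for the last enzyme, had no coding-span peak in any list.

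Arginine genes were split. CPA1 (chromosome XV, 882899 to 884134), the small subunit of the carbamoyl phosphate synthetase of this pathway, had no coding-span peak with auxin and 82.8, 77.6 and 36.2% coverage without auxin. ARG4 (chromosome VIII, 140011 to 141402), argininosuccinate lyase, had none with auxin and 54.7, 66.9 and 16.2% without auxin. ARG1 was covered in the first and second lists without auxin, ARG8 in the second, and ARG3 in none. No list with auxin held a coding-span peak at any of these 5 genes.

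Among the other pathways, THR1 (chromosome VIII, 159438 to 160511), homoserine kinase, kept its peaks, at 39.0, 21.2 and 36.2% coverage with auxin and 62.1, 81.6 and 40.0% without auxin. The groups were parted by a narrow margin, and with 964 peaks in every list the difference turned to 25.1 percentage points higher with auxin. The other threonine genes HOM3, HOM2 and THR4 had 27.3 to 60.4% in the first and second lists without auxin and nothing in the third or with auxin. SER3 (chromosome V, 322686 to 324095), a 3-phosphoglycerate dehydrogenase, had no coding-span peak with auxin and 88.9, 90.1 and 39.9% coverage without auxin, while its isozyme gene SER33 had no peak in any list. Reads that match both copies of such isozyme pairs, among them LYS20 and LYS21 or ASN1 and ASN2, could have been placed at either, since the handling of repeated matches is not given in the sources used here, so their values are uncertain as separate observations.

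Histidine and aromatic genes had coding-span peaks in the first and second lists without auxin alone. Of the 4 histidine genes, HIS1 and HIS3 had them. HIS3 (chromosome XV, 721946 to 722608), imidazoleglycerol-phosphate dehydratase, had 0% in each list with auxin and 64.1, 79.8 and 0% without auxin. None of this cover was left at HIS3 among peaks with a −log10 q of 5 or more. Of the 7 aromatic genes 5 and 4 had one, with the highest coverage at TRP5, for tryptophan synthase, at 68.7 and 72.0%, and at ARO1, for the multifunctional arom enzyme, at 69.1 and 57.8%. In these pathways nothing separated the third list without auxin from the lists with auxin, since all 4 had no coding-span peak.

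**Figure D3:**
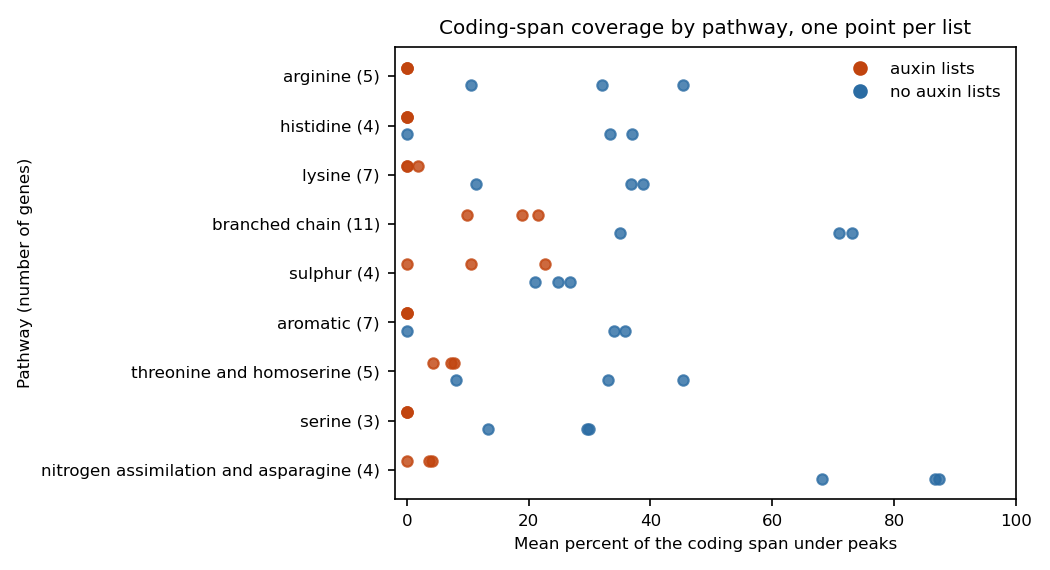
Mean percent of the coding span under peaks (x axis) for each pathway, 1 point per list, with auxin above and without auxin below in each row. Nitrogen assimilation and asparagine genes lie at 68.1% or more without auxin and at 4.18% or less with auxin, while in the histidine and aromatic rows the third list without auxin lies at 0 with the lists with auxin.

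Along the genes, coverage without auxin was higher towards the 3′ end. From the start codon to the midpoint of the coding span the 50 genes had a mean coverage of 4.77 ± 2.1% with auxin and 32.4 ± 15.4% without auxin, and from the midpoint to the stop codon 6.25 ± 2.79% with auxin and 43.5 ± 17.5% without auxin (SD, n = 3 each). The 3′ side was higher in each of the 6 lists. All coding genes showed the same order without auxin, at 14.1 ± 2.60% on the 3′ side and 10.1 ± 1.63% on the 5′ side (SD, n = 3). At 500 bp after the start codon, 4, 4 and 8% of the amino acid genes lay under a peak with auxin, against 56, 52 and 18% without auxin. At 400 bp before it the shares were 10, 20 and 28% with auxin and 14, 18 and 18% without auxin. All coding genes stood at 7.21, 9.83 and 13.3% with auxin and 8.33, 7.70 and 7.91% without auxin at that place.

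**Figure D4:**
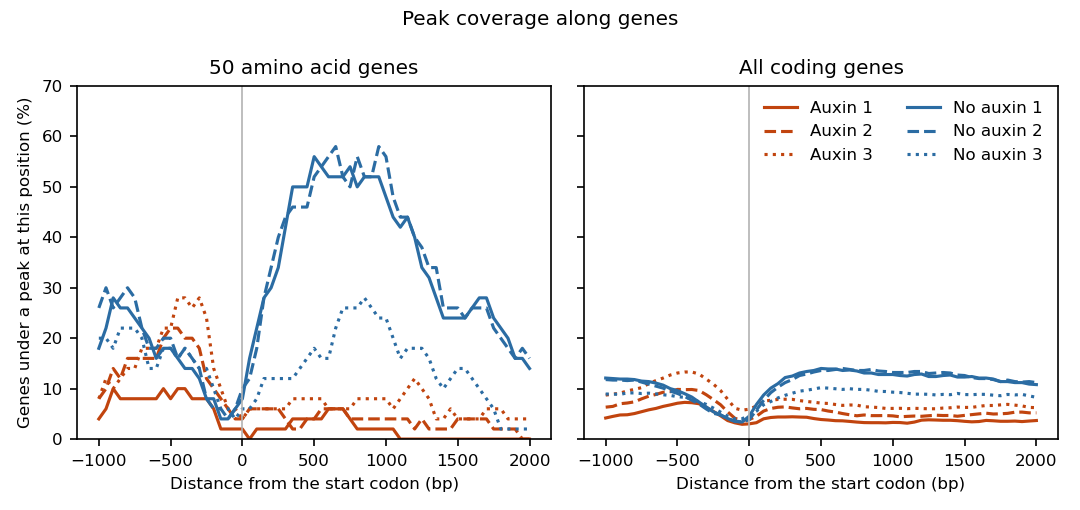
Percent of genes under a peak (y axis) by distance from the start codon in bp (x axis, downstream to the right, running past the end of shorter genes), for the 50 amino acid genes and all 6002 coding genes, 1 line per list. Without auxin the amino acid genes show a broad elevation after the start, lower in the third list, and with auxin the higher values lie before the start.

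Before the start codon the conditions did not part. A peak lay in the 500 bp upstream of 5, 13 and 16 of the 50 genes with auxin and of 12, 12 and 13 without auxin, or 22.7 ± 11.4% and 24.7 ± 1.15% (SD, n = 3 each), and the groups overlapped. All coding genes stood at 10.9, 14.5 and 19.3% with auxin and 13.7, 12.7 and 12.9% without auxin. The difference of -1 gene (auxin minus no auxin) turned positive under several settings, from 0.667 with a window of 250 bp to 2.67 when a peak's summit had to lie in the window. An upstream peak without a coding-span peak was found at 4, 10 and 10 genes with auxin and at 2, 2 and 4 without auxin. Over all coding genes these shares were 6.96, 8.55 and 10.4% with auxin and 6.43, 6.01 and 6.01% without auxin, in the same direction. By the pattern over the 6 lists, 4 upstream windows were kept against 5.63% of all coding genes, 2 were lost against 2.00%, none was gained against 2.23%, and 30 never held a peak against 74.2%. An upstream peak in any list with auxin and in none without was found at 5 genes, each in 1 list, against 8.25% of all coding genes. The reverse was found at 2 genes, SER3 and TRP3, against 5.61%. At 8 genes no list held a peak in the coding span or upstream, against 57.6% of all coding genes.

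The upstream window is often shared with other genes. At 24 of the 50 genes the coding span of the next gene on the 5′ side reached into the window. Of the genes with an upstream peak, 2, 7 and 8 with auxin and 5, 7 and 6 without auxin had a peak that also overlapped another coding gene. In each list 3 genes had an upstream peak that lay over a tRNA gene. In each list without auxin 3 more, ASN1, TRP3 and SER3, had a peak over another noncoding RNA gene, SNR45, SNR64 and SRG1 respectively. No upstream peak over such a gene was found with auxin. The same count was not made over all coding genes, so it cannot be called particular to the 50.

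LEU4 had upstream peaks in every list with auxin and in 1 list without. Peaks covered 337, 343 and 319 bp of its upstream window with auxin, against 0, 0 and 269 bp without auxin. It was the one gene of the 50 whose upstream covered length was higher in every list with auxin, against 4.38% of all coding genes, while at 2 genes it was lower in every list with auxin, against 2.87%. The summits lay at -310, -297 and -305 bp from the start codon with auxin and at -306 bp in the third list without auxin. Thus LEU4 was covered over its coding span and not upstream in the first and second lists without auxin, over both in the third, and upstream alone in the lists with auxin. Its divergent neighbour is MET4, which encodes the activator of sulphur amino acid genes and lies 980 bp away, and the same peaks touched the end of the upstream window of MET4 with auxin, over 14, 149 and 19 bp.

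LYS20 and CPA1 had a similar arrangement in fewer lists. Upstream of LYS20, peaks covered 0, 218 and 254 bp with auxin and 0, 0 and 153 bp without auxin. Upstream of CPA1 they covered 0, 73 and 106 bp with auxin and 0, 0 and 73 bp without auxin, and these peaks also lay over RAX1, a neighbouring gene. At both genes the third list without auxin resembled the second and the third lists with auxin upstream, and the other lists without auxin in the coding span. At 4 genes, LEU4, LYS20, CPA1 and ASN2, a coding-span peak in at least 2 lists without auxin was absent from every list with auxin while an upstream peak was present in at least 2 of them, against 2.20% of all coding genes. At ASN2 the upstream peak lay over a tRNA gene and was present in every list of both conditions. The summits with auxin lay outside the 500 bp window at LYS20 (-521 and -507 bp) and at CPA1 (-568 and -588 bp). Such a coding-span peak that was absent with auxin was found at 28 amino acid genes (56%) and at 667 coding genes (11.1%). The genes with an upstream peak as well were 4 of these 28 and 132 of these 667. The counts are small and the difference between these shares was not tested.

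ILV3 and ASN1 held upstream peaks in both conditions. ILV3 had 0, 223 and 261 bp covered upstream with auxin and 161, 222 and 167 bp without auxin. ASN1 had 0, 248 and 275 bp with auxin and 239, 243 and 284 bp without auxin. In all 3 lists without auxin the upstream peak of ASN1 reached over SNR45, a small nucleolar RNA gene. Its far edge lay at -523 and -595 bp in the second and the third lists with auxin, short of SNR45, and at -900, -883 and -886 bp without auxin. The upstream window of ILV6 was covered over 0, 462 and 403 bp with auxin and 17, 29 and 416 bp without auxin, and the 3 longest stretches belonged to peaks that ran on into the gene. ILV5 had 0, 0 and 226 bp covered upstream with auxin, by a separate peak, and 78, 63 and 27 bp without auxin, by the edge of its coding-span peak.

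SER3 and TRP3 had the upstream windows called lost. Upstream of SER3, peaks covered 374, 404 and 212 bp in the lists without auxin and nothing with auxin. They lay over SRG1, a noncoding RNA known to be transcribed across the SER3 promoter and to repress SER3 when serine is plentiful. In the first and second lists without auxin 1 peak ran from SRG1 into SER3, and in the third separate peaks lay over each. At TRP3, which encodes a bifunctional enzyme of tryptophan synthesis, the upstream cover was 21, 30 and 36 bp without auxin and none with auxin, from the edge of a peak over UBA1 and the small nucleolar RNA gene SNR64.

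**Figure D5:**
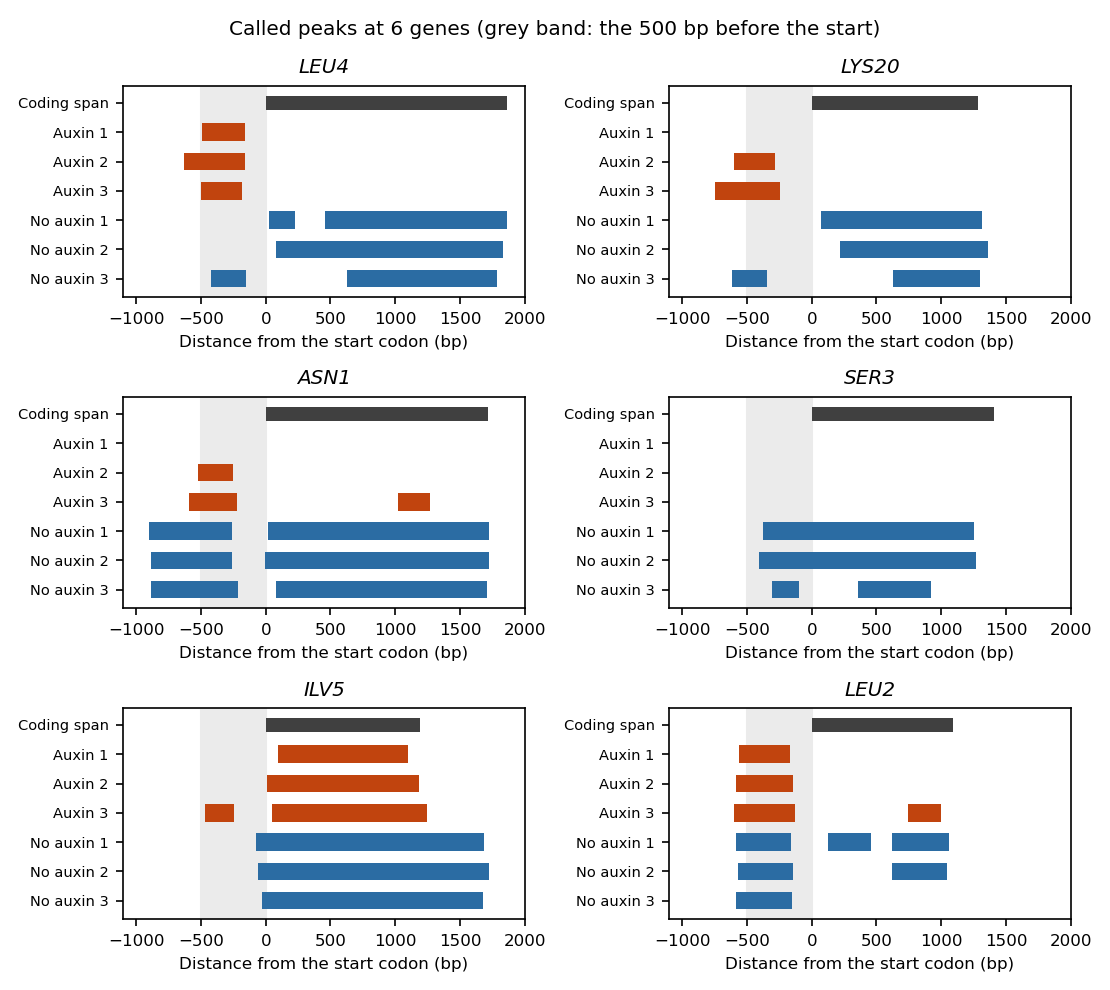
Called peaks at 6 genes by distance from the start codon in bp (x axis), with the coding span in dark grey, lists with auxin in the upper rows and lists without auxin in the lower rows. With auxin LEU4 has peaks before the start in all lists, and LYS20 in the second and the third. Without auxin both are covered over the coding span, and in the third list before the start as well. SER3 has peaks without auxin alone, ILV5 is covered in all lists and LEU2 has the same upstream peak in all lists.

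Upstream peaks over tRNA genes were present in both conditions. Of the 50 genes, 4 lay within 1000 bp of a tRNA gene, namely LEU2 (351 bp), MET17 (351 bp), ASN2 (748 bp) and ARO3 (772 bp). The first 3 had an upstream peak in all 6 lists, and each of those peaks lay over the tRNA gene. Among all coding genes within 1000 bp of a tRNA gene, the share with an upstream peak was 52.7, 56.2 and 61.4% with auxin and 52.2, 51.3 and 56.4% without auxin. For the 46 amino acid genes farther away, coding-span counts were 4, 6 and 7 with auxin and 35, 36 and 17 without auxin, and upstream counts 2, 10 and 13 with auxin and 9, 9 and 10 without auxin.

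LEU2 (chromosome III, 91324 to 92418), beta-isopropylmalate dehydrogenase, had 333, 354 and 369 bp of its upstream window covered with auxin and 337, 359 and 346 bp without auxin, by peaks over the tRNA gene SUP53. Its coding span was covered apart from these, over 0, 0 and 23.7% with auxin and 71.0, 38.9 and 0% without auxin. MET17 (chromosome XII, 732542 to 733876), which makes homocysteine from sulphide, had 280, 287 and 332 bp covered upstream with auxin and 313, 289 and 283 bp without auxin, and no coding-span peak in any list. ASN2 had 114, 225 and 279 bp with auxin and 216, 212 and 142 bp without auxin. At all 3 genes the upstream values of the conditions overlapped.

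MET14 (chromosome XI, 438777 to 439385), adenylylsulphate kinase, lies beside the centromere of its chromosome, a position known from general knowledge of the genome and not from the table used here. Its whole upstream window of 500 bp was covered in each of the 6 lists, by peaks as wide as 4229 bp with auxin and 3339 bp without auxin. They entered the coding span to 0.164, 42.2 and 90.8% with auxin and 88.8, 87.2 and 84.2% without auxin. The first value is 1 base, and without it MET14 would not count among the kept genes. The other sulphur genes MET3 and MET6 had no coding-span peak in any list with auxin.

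HIS3 and LEU2 are usual auxotrophic marker loci of W303 strains, which as background carry mutant alleles of both, although the genotype given for these cultures does not list them. Peaks at both were called on the S288C sequence of the build. Neither had the coding span covered in the third list without auxin. None of the 50 genes lay within 5000 bp of URA3, MED14 (listed as RGR1), SCC2 or ADH1, the loci named in the genotype. The shortest distance, from HOM2 to SCC2, was 49840 bp.

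Coding-span peaks were also counted at 45 other enzyme genes of amino acid metabolism. They were found at 2, 6 and 8 of these with auxin and 11, 15 and 5 without auxin. In each list without auxin this was a smaller share than among the 50. Over all coding genes the shares were 7.93, 12.4 and 15.2% with auxin and 24.9, 25.0 and 17.0% without auxin. The third list without auxin held fewer of the 45 genes than the third with auxin. Mean coverage of the 45 was 2.92% with auxin and 12.4% without auxin, against 5.64 and 12.1% over all coding genes. Without auxin these other enzyme genes thus stood at the level of coding genes in general, unlike the 50. CYS4 and GLY1, for cystathionine beta-synthase and threonine aldolase, were lost, GLY1 with 100% coverage in each list without auxin. CYS3 and SAM1, for cystathionine gamma-lyase and S-adenosylmethionine synthetase, were kept. Of the 45 genes 2 were thus lost and 2 kept, against 5.56 and 5.53% of all coding genes. The upstream windows of HIS2, CYS3, ARO8 and GLY1 were kept as well, against 5.63% of all coding genes. Of these, HIS2 and ARO8 lay 173 and 475 bp from a tRNA gene, where upstream peaks were common in both conditions. CYS3 had 23.8, 56.2 and 87.9% with auxin and 94.1, 85.8 and 84.8% without auxin, and SAM1 had 19.8, 26.6 and 19.5% with auxin and 80.8, 76.2 and 50.0% without auxin. Of 13 regulatory genes, 1, 3 and 2 had a coding-span peak with auxin and 2, 4 and 2 without auxin. ARG80, an arginine regulator 232 bp from a tRNA gene, had the gained pattern, against 0.716% of all coding genes. Its coding span had 26.0, 78.5 and 74.5% coverage with auxin and none without auxin. The upstream window of ARG80 was kept, with 364, 361 and 400 bp covered with auxin and 432, 414 and 360 bp without auxin. LYS14 had the lost pattern with at most 4.00% of its span covered.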

How the data were processed

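Each of 6 Myc immunoprecipitates had its own deposited peak list, and no list was used here for 6 total chromatin samples. Bowtie2 2.4.2, MACS2 2.1.1.20160309 and the sacCer3 build are named in the submitters' processing notes. How each tool was run, with which cut-off and control, is not given in the sources used here. The authors' fold enrichment is a ratio for each peak, and the −log10 p and −log10 q values are as deposited. The score deposited by the authors, 10 times −log10 q, was not used. The smallest −log10 q was 2.31 to 2.76. Peak fold describes and −log10 q ranks peaks within a list.

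Positions of 6002 nuclear coding and 275 nuclear tRNA genes came from the RefSeq R64 table, the sequence of sacCer3, and strand from systematic names. A peak was at a gene when it overlapped the span or window by 1 base or more. Per-gene coverage was compared by an exact two-sided permutation test over all 20 assignments with Benjamini-Hochberg adjustment over the coding genes with a peak (Python 3.11.15, numpy 2.4.6, pandas 2.3.3), and the functions were tested on simulated data. Where nothing says otherwise, values are counts per list. Replicates were grown as separate cultures, per the labels.

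The genes and lists were chosen with earlier results of these data known. Genes are named with values for each list where the coding span or upstream window held a peak in all 3 lists of a condition. HIS3 and LEU2 are always named, and genes outside the 50 where lost, kept or gained. Further genes named were chosen after their values were seen. A planned search for activator motifs was not run, since no promoter sequence was used here. Alternatives were a −log10 q of 5 or more, 964 peaks in every list, overlap of 100 bp, the summit inside, a 250 bp window, no genes near tRNA genes, each list left out, and, added after seeing the data, the third lists alone. Same-numbered lists did not deviate together (correlations of -0.00069, 0.007 and 0.1).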

Additional observations from a re-analysis of the deposited data

How the results depend on the processing

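The results followed here were the difference in genes with a coding-span peak (auxin minus no auxin, -25), the same for upstream peaks (-1), the difference in mean coverage (-32.5 percentage points), and the lost (10) and kept (4) genes. With 964 peaks in every list the first 3 were -7.67, 1 and -14.8, with 3 lost and 2 kept. Between the third lists alone they were -9, 3 and -11.2. The upstream difference was also positive with an overlap of 100 bp (1.33), the summit inside (2.67) and a 250 bp window (0.667). With 1 list left out the ranges were -32.0 to -21.5 genes, -3.33 to 2.17 genes, -41.9 to -27.2 percentage points, 10 to 28 lost and 4 to 5 kept. The upstream value of 2.17 came from leaving out the first list with auxin, and the 28 lost genes from leaving out the third list without auxin. The other settings moved these 5 results by less than the spread between lists, or the counts by less than 1.5 times. Among the coverage differences of single genes, positive values came with 964 peaks in every list at THR1 (25.1 percentage points) and ILV6 (27.6), without the first list with auxin at ILV6 (3.51), and between the third lists alone at LEU2 (23.7), LYS4 (12.6) and MET14 (6.57). With a −log10 q of 5 or more, the difference was 0 at HIS3, HOM3 and LYS9, -5.78 at THR4 and -2.14 at LYS2. The causes were not tested. Same-numbered lists did not deviate together, which cannot show whether such cultures were handled together. The replicate block was therefore not taken as the design. Its within-pair mean differences equal the others, at -25 ± 13.9 genes, -1 ± 5.29 genes and -32.5 ± 18.4 percentage points (SD, n = 3 pairs). Depth is unknown, so the absence of a called peak does not show the absence of Scc2.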

Other observations

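The genes named here were chosen after their values were seen. The third list with auxin held a peak upstream of GLN1, from -1160 to -440 bp of the start codon, that ranked 146 of 1569 by −log10 q with an authors' fold of 6.39. The first and the second lists with auxin also held a peak in that stretch, over 479 and 644 bp of its 721 bp, though not within 500 bp of the start codon. No list without auxin held a peak there. The stretch was set by the peak of the third list with auxin, which favours that condition. Like stretches elsewhere were not counted, so the site cannot be called particular to GLN1. The 5 genes with an upstream peak with auxin and none without were LYS12, LYS2, SER1, GDH1 and GLN1.

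At LYS1, for saccharopine dehydrogenase, peaks lay upstream of an uncovered coding span in both conditions. They covered 0, 230 and 490 bp of the upstream window with auxin and 120, 164 and 0 bp without auxin. Those with auxin ended at -55 and -11 bp from the start codon, and those without auxin at -381 and -337 bp. The peak of the third list with auxin and both without auxin also lay over the neighbouring gene NRE1.

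The 8 genes with neither a coding-span nor an upstream peak in any list were ARG3, HIS4, HIS5, MET3, TRP2, TRP4, HOM6 and SER33. Over all coding genes the share was 57.6%. They fall into 6 of the 9 pathways, so that uncovered genes stood beside covered ones of the same pathway, such as HIS4 and HIS5 beside HIS1 and HIS3, or TRP2 and TRP4 beside TRP3 and TRP5.

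Downstream of the stop codon, within 500 bp, peaks were called at 0, 1 and 4 of the 50 genes with auxin and 12, 15 and 5 without auxin, against 7.21, 9.33 and 12.1% of all coding genes with auxin and 19.4, 19.4 and 15.8% without auxin. This window was added after seeing the data.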
